A study of Mus musculus with 11 samples.

Results

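Transcripts of striatal marker genes were quantified in hypothalamic tissue of male mouse offspring on P21. The set comprised 8 genes that are strongly expressed in neurons of the striatum, namely Adora2a, Ppp1r1b, Drd1, Drd2, Bcl11b, Rgs9, Pde10a and Crym, of 19987 genes that could be named on the arrays. They were taken by name, with earlier results of these data known. Every mouse probe whose accession belonged to 1 of them was included, which gave 13 of 39429 probes. HFD offspring (n = 6) came from C57BL/6N dams that received a high-fat diet before mating and throughout gestation and lactation. CO offspring (n = 5), whose sample titles read SD, came from dams of that strain on standard chow. All animals were male, were killed at P21 and carried no genetic modification. The landmarks that the labels give for the dissection (optic chiasm, hypothalamic sulci and mammillothalamic tract) are meant to delimit the hypothalamus. How much neighboring tissue each sample held was not tested. The methods allowed at most 2 offspring per dam, but the labels do not say which samples are littermates or whether a sample is a single animal, so the spread between samples may be smaller than that between litters.

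The striatum consists mainly of medium spiny neurons, GABAergic projection neurons that fall into a pair of classes. Neurons of the direct pathway carry the dopamine receptor D1 and the peptides substance P and dynorphin, while neurons of the indirect pathway carry the dopamine receptor D2, the adenosine receptor encoded by Adora2a and enkephalin. Both classes use DARPP-32, encoded by Ppp1r1b, which inhibits protein phosphatase 1 once protein kinase A has phosphorylated it, and both contain the phosphodiesterase PDE10A and the G protein regulator RGS9. Bcl11b, also called Ctip2, is a transcription factor needed for the differentiation of these neurons. Crym encodes mu-crystallin, which binds thyroid hormone. None of the genes is confined to the striatum, and Drd1, Drd2 and Crym among others are also transcribed in hypothalamic neurons.

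The 2 dopamine receptors that define the pathways and Rgs9 lie on separate chromosomes, and the sequences around their start sites are shown because the levels of these genes are set side by side. RefSeq start sites (GRCm38.p6) were found for 7 promoters of 5 members (Bcl11b, Drd1, Drd2, Pde10a and Rgs9), each from 250 bases before to 50 after the start. The windows shown lie on chr13:54055609-54055908 (minus strand) for Drd1, chr9:49340153-49340452 (plus strand) for Drd2 and chr11:109298132-109298431 (minus strand) for Rgs9. Capitals mark the GC box, GGGCGG or its reverse complement CCGCCC.
Drd1: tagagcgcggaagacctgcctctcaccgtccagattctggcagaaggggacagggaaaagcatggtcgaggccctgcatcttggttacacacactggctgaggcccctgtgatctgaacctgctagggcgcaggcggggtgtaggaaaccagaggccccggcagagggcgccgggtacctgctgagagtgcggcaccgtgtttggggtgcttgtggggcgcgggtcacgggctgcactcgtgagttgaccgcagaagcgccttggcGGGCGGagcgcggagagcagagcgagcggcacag
Drd2: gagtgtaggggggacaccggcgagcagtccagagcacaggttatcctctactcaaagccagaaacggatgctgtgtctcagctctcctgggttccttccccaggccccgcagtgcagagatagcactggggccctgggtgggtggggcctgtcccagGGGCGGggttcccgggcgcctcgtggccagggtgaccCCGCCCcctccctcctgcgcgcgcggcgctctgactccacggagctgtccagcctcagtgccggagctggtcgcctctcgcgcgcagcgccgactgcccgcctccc
Rgs9: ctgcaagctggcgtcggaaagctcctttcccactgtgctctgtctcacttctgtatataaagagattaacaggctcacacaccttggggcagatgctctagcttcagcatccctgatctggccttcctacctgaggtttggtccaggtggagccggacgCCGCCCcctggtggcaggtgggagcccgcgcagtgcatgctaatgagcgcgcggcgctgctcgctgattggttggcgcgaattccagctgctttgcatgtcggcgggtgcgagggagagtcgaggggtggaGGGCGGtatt
A GC box was present in 6 of the 7 member promoters (all but that of Bcl11b) and in 35.7% of 32851 promoters of the same length. These 6 windows held 56.7 to 71.3% G and C, against a median of 52.7% over all promoters, and the shares were not matched for this content. The letters TATAAA, read on both strands, occurred in 2 of the 7 and in 13.6% of all promoters. The core TGACG of the cyclic AMP response element, also read on both strands, was in 0 of the 7 and in 20.8% of all.

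Each sample was hybridized to its own single-dye array, on which a spot's brightness follows the amount of its transcript. Levels are given as log2 of the background-subtracted signal relative to the 75th percentile of the array, so a difference of 1 is a 2-fold difference, and levels of different probes are not compared. Between 71.8 and 77.4% of spots in HFD and between 82.5 and 85.7% in CO samples were well above background, no mouse spot was saturated, and arrays correlated at 0.992 to 0.995 within HFD and 0.986 to 0.994 within CO. HFD and CO arrays were scanned 337 days apart on separate slides (2 per group) and read out with different protocol versions of the extraction software, so diet and scan session cannot be told apart. Of the 13 member probes, 12 were well above background on all 11 arrays, while the third probe of Pde10a was at background in all samples and was not tested. Unless stated otherwise, a gene is represented by its brightest probe. Of 22 hypothalamic marker genes, 20 were well above background on all arrays, with Sim1 and Otp above it on 6 each.

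Adora2a, the adenosine receptor of the indirect pathway, was lower in HFD offspring, by more than any other member. Its levels in HFD replicates 1 to 6 were -3.36, -1.62, -3.11, -1.36, -1.81 and -0.45, against 1.78, 2.02, 0.19, -1.48 and 1.29 in CO replicates 1 to 5. In signal, the range was 319 to 2409 units in HFD and 1050 to 10375 units in CO samples. CO replicates 1, 2, 3 and 5 lay above every HFD sample, whereas CO replicate 4 lay within the HFD range. The means were -1.95 ± 1.10 in HFD (SD, n = 6) and 0.76 ± 1.44 in CO (SD, n = 5). The log2 difference of -2.71 (SE 0.68, 95% confidence interval -4.21 to -1.21) is a 6.55-fold lower level and passed the test (limma, adjusted p = 0.00425). In bulk tissue, fewer cells of a type and less RNA per cell cannot be told apart.

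Drd2, the D2 receptor of the same neurons, was lower in HFD offspring in every sample. HFD samples were at -3.23, -3.57, -3.48, -3.04, -3.21 and -3.01, against -1.73, -1.28, -2.52, -2.77 and -1.72 in CO samples. The lowest CO sample, replicate 4, was still above the highest HFD sample, replicate 6, although by a small margin. Means were -3.26 ± 0.23 in HFD and -2.0 ± 0.62 in CO samples, and the difference of -1.25 (SE 0.25) gave a 2.38-fold lower level (limma, adjusted p = 0.000829).

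Drd1, the D1 receptor of the direct pathway, did not pass the test. HFD samples had -3.06, -1.93, -2.79, -1.84, -2.08 and -1.20, against -0.44, 0.13, -1.97, -2.84 and -0.74 in CO samples. The 2 groups overlapped widely, since 5 of 6 HFD samples fell inside the CO range and CO replicate 4 was below all HFD samples but replicate 1. The difference was -0.98 (SE 0.51, 95% confidence interval -2.11 to 0.15, limma, adjusted p = 0.112). Without CO replicate 4 it was -1.40 and passed (adjusted p = 0.0164), and it passed with scaling to spike-in probes, at -1.65 (adjusted p = 0.00832).

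Ppp1r1b, which encodes DARPP-32, was lower in HFD offspring. Its levels were 0.58, 1.96, 1.48, 2.38, 1.67 and 2.78 in HFD samples, against 4.73, 5.02, 3.25, 2.00 and 4.31 in CO samples. As for Adora2a, all CO samples except replicate 4 were above the highest HFD sample. The difference was -2.06 (SE 0.54), a 4.16-fold lower level (limma, adjusted p = 0.00567).

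Rgs9, a regulator that speeds the shutdown of G protein signaling, was represented by 3 probes. On the brightest, HFD samples had 0.99, 1.98, 1.46, 2.38, 1.90 and 2.68, against 3.83, 3.98, 2.59, 1.54 and 3.35 in CO samples, and 4 of the 6 HFD samples lay inside the CO range. The difference of -1.16 (SE 0.44) passed (limma, adjusted p = 0.0350), as did that of -1.17 on the second probe (adjusted p = 0.0359). Both calls were lost when CO replicate 1, 2 or 5 or HFD replicate 1, 2, 3 or 5 was left out, with adjusted p-values of up to 0.0934, and with normexp background correction (adjusted p = 0.0583 and 0.0955). The third probe was dim, at -5.35, -4.83, -4.75, -4.91, -4.77 and -4.71 in HFD samples and -4.49, -3.77, -3.93, -4.05 and -3.73 in CO samples. Here the groups did not overlap (difference -0.89, SE 0.15, adjusted p = 0.000314), and the order of the samples differed from that on the other probes, with CO replicate 1 the lowest of the CO samples and a correlation of deviations from the group means of 0.228 with the brightest probe, against 0.998 for the second probe. With normexp background correction the third probe no longer passed (difference -0.57, adjusted p = 0.238).

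Pde10a, the phosphodiesterase that breaks down cyclic nucleotides in medium spiny neurons, was lower in HFD offspring on both probes that were tested. The brightest gave -1.80, -1.43, -1.62, -1.19, -1.26 and -0.75 in HFD samples, against 0.33, 0.48, -0.96, -1.47 and -0.11 in CO samples. CO replicates 3 and 4 lay within the HFD range and the other CO samples above it. The difference was -1.0 (SE 0.34, limma, adjusted p = 0.0218) on this probe and -1.28 (SE 0.33, adjusted p = 0.00529) on the second, which followed the first across the samples (r = 0.980). Without CO replicate 1 or 2 the call on the brightest probe was lost (adjusted p = 0.0560 and 0.0582).

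Bcl11b, the transcription factor, was lower in HFD offspring on its brightest probe, with -1.83, -0.31, -0.32, -0.38, -0.11 and 0.45 in HFD samples, against 1.13, 1.42, 0.28, 0.06 and 1.49 in CO samples. Only HFD replicate 6 reached into the CO range, and HFD replicate 1 stood well below the other HFD samples. The difference was -1.29 (SE 0.39, limma, adjusted p = 0.0118). On the second probe, the difference of -0.83 (SE 0.40) did not pass (adjusted p = 0.0838), although the probes moved together (r = 0.984), and without HFD replicate 6 it was -1.02 and passed (adjusted p = 0.0352).

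Crym was lower in HFD offspring by a margin close to the threshold. Its levels were -0.67, 0.76, 1.20, 1.24, 1.24 and 1.82 in HFD samples and 2.71, 2.52, 1.73, 0.78 and 2.63 in CO samples. HFD replicate 1 was far below the rest of its group, and CO replicate 4 was at the level of HFD replicate 2. The difference of -1.14 (SE 0.46, limma, adjusted p = 0.0437) passed with all samples, but not when CO replicate 1, 2, 3 or 5 or any HFD sample except replicate 6 was left out (adjusted p up to 0.0984). With all samples, the call was also lost with normexp background correction (adjusted p = 0.0941), quantile normalization (0.0503), the array median as the scale (0.0532) and dim probes retained (0.0525).

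**Figure D1:**
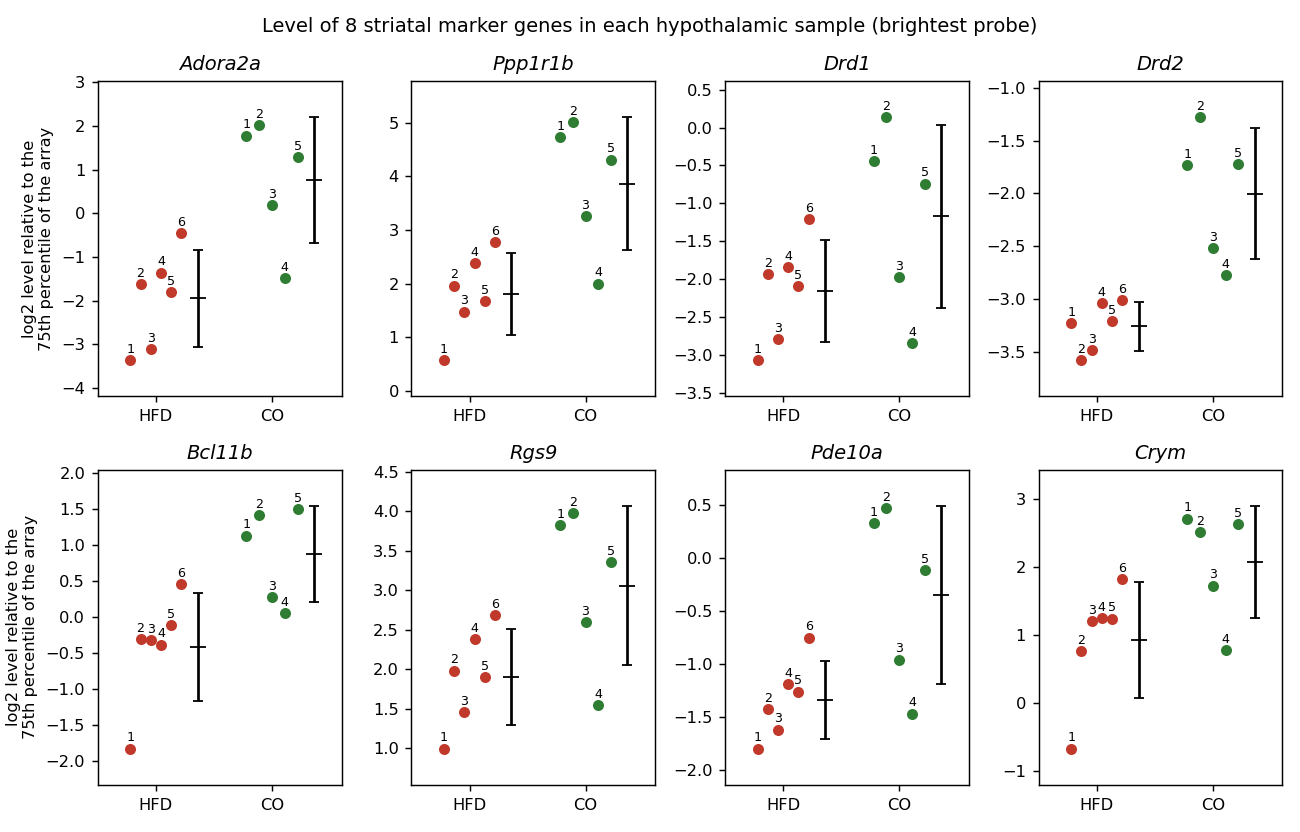
Level of each of the 8 genes on its brightest probe in every sample, as log2 relative to the 75th percentile of the array (y axis), with HFD samples (red) left of CO samples (green), replicate numbers beside the points, and bars for mean ± SD (n = 6 and 5). Only Drd2 has no overlap between the groups, and CO replicate 4 is the lowest CO sample in all 8 panels.

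Counted over probes, 10 of the 12 member probes tested were lower in HFD offspring and 0 were higher. The background was 43.6% of 31790 probes lower and 23.6% higher, together 67.1%. Counted over genes, 7 of 8 were lower, against 43.8% of 17188 genes, with a median log2 difference of -1.21 over the members and -0.17 over all genes. Lower levels in HFD offspring without any overlap were seen for 2 of the 12 probes (Drd2 and the third probe of Rgs9), a smaller share than the 30.6% of all probes that were lower without overlap. The count of 10 member probes fell to 6 without CO replicate 1 and to 6 without CO replicate 2, both of which had high levels of these genes. It was 6 with normexp background correction and 2 by the Rank Product test named in the methods (Adora2a and Ppp1r1b), which called 2.14% of all probes lower. With scaling to spike-in probes every log2 difference between HFD and CO shifted down by 0.67, and 12 of 12 member probes were lower, against 80.4% of all probes.

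The levels of the striatal marker genes varied more within a diet group than those of most genes. Within HFD samples the SD of the log2 level was 0.23 (Drd2) to 1.10 (Adora2a), with a median of 0.716 against 0.147 over all probes. Within CO samples it was 0.62 (Drd2) to 1.44 (Adora2a), with a median of 0.924 against 0.185. In HFD samples, 6 of the 8 genes (not Drd2 and Pde10a) were above 0.598, the 95th percentile of all probes, and in CO samples 7 of the 8 (not Drd2) were above 0.630, the 95th percentile there. Expressed as a fold, the lowest and the highest HFD sample differed 7.51-fold in Adora2a, 4.58-fold in Ppp1r1b and 1.48-fold in Drd2, and the lowest and highest CO samples differed 11.3-fold, 8.08-fold and 2.81-fold in these genes. Wide variation was not limited to striatal markers. Neurod6, a gene of cortex and hippocampus, had an SD of 1.26 in HFD and 1.11 in CO samples. Kcne2, a choroid plexus gene, had 0.83 and 0.35, whereas Cux2, another cortical gene, had 0.13 and 0.18.

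The order of the samples was shared by most of the genes. HFD replicate 6 was the highest of its group for 8 of 8 genes and HFD replicate 1 the lowest for 7, the exception being Drd2, which was lowest in HFD replicate 2. Among CO samples, replicate 2 was highest for 6 genes, with Crym highest in replicate 1 and Bcl11b in replicate 5. CO replicate 4 was lowest for 8 of 8 genes and replicate 3 among the lowest 2 for 8 of 8. HFD replicates 1 and 2 shared a slide, and CO replicates 2 and 4, a high and a low sample, shared another. The leading numbers 65 and 89 of the CO titles, whose meaning is not stated, each stood on high and low samples.

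**Figure D2:**
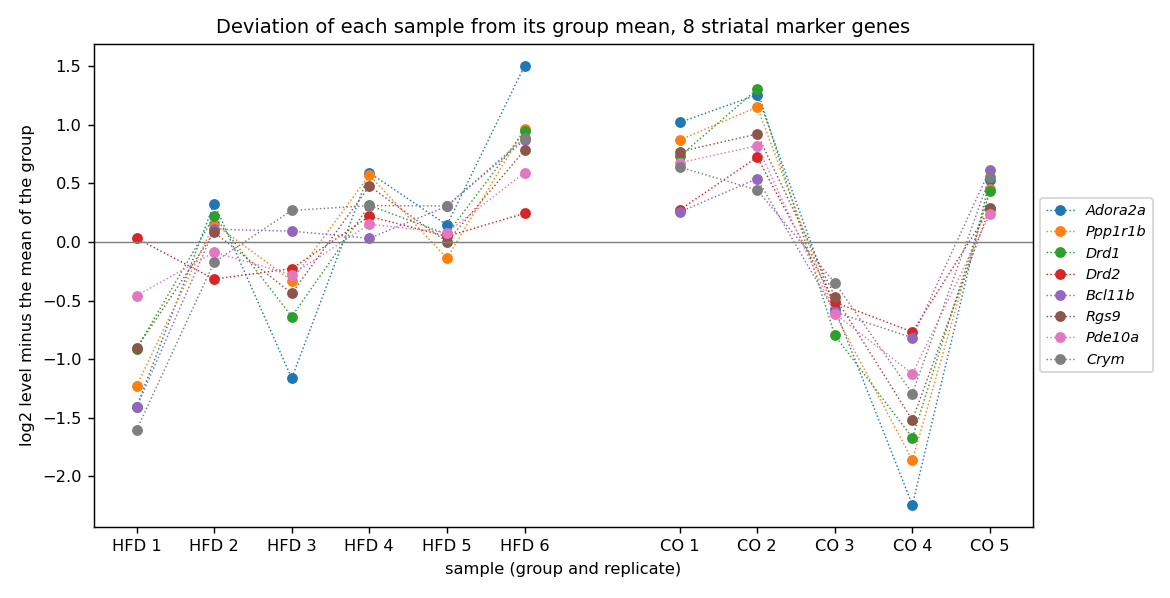
Log2 level of each gene minus the mean of its group (y axis) in every sample (x axis, HFD left and CO right), 1 colour per gene, with dotted lines to help follow a gene. HFD replicate 6 is above the group mean for 8 of 8 genes and CO replicate 4 below it for 8 of 8.

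Correlations between members are given as a description, with no test, since the members were chosen with earlier results of these data known. All values come from the same arrays and share their scaling. Among the 28 pairs of genes, Pearson's r over the 6 HFD samples had a median of 0.836, was above 0.8 for 18 pairs and was highest for Adora2a and Drd1 (0.997). These 2 genes mark the indirect and the direct pathway. The 7 pairs with Drd2 had an r of 0.156 (Bcl11b) to 0.614 (Pde10a), against 0.732 to 0.997 in the 21 pairs without it. Spearman's rho had a median of 0.829 over the 28 pairs and did not separate Drd2 from Bcl11b, each of which had a rho of 0.6 with Adora2a, Ppp1r1b, Drd1 and Rgs9. After the 2 HFD samples farthest from the median of the first gene of a pair had been left out, the median r was 0.720. Fewer samples than in the CO group then remained. Whether a relation depends on the samples left out therefore cannot be told from these values. The pairs among Adora2a, Ppp1r1b, Drd1, Rgs9 and Pde10a had an r of 0.718 to 0.997 in the samples that remained. Bcl11b and Crym, with each other and with Ppp1r1b, Drd1, Rgs9 and Pde10a, had -0.521 to 0.263. With Adora2a as the first gene, for which other samples were left out, Bcl11b and Crym had 0.820 and 0.829. The 7 pairs with Drd2 had 0.450 to 0.890. With 5 CO samples no coefficient is given for that group alone. For deviations from the group means over all 11 samples, the median r was 0.869 and the median rho 0.895, with values of 0.592 (Drd2 and Bcl11b) to 0.995 (Ppp1r1b and Rgs9), and without the 2 farthest samples the median r was 0.796 and the lowest 0.433 (Drd2 and Crym).

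**Figure D3:**
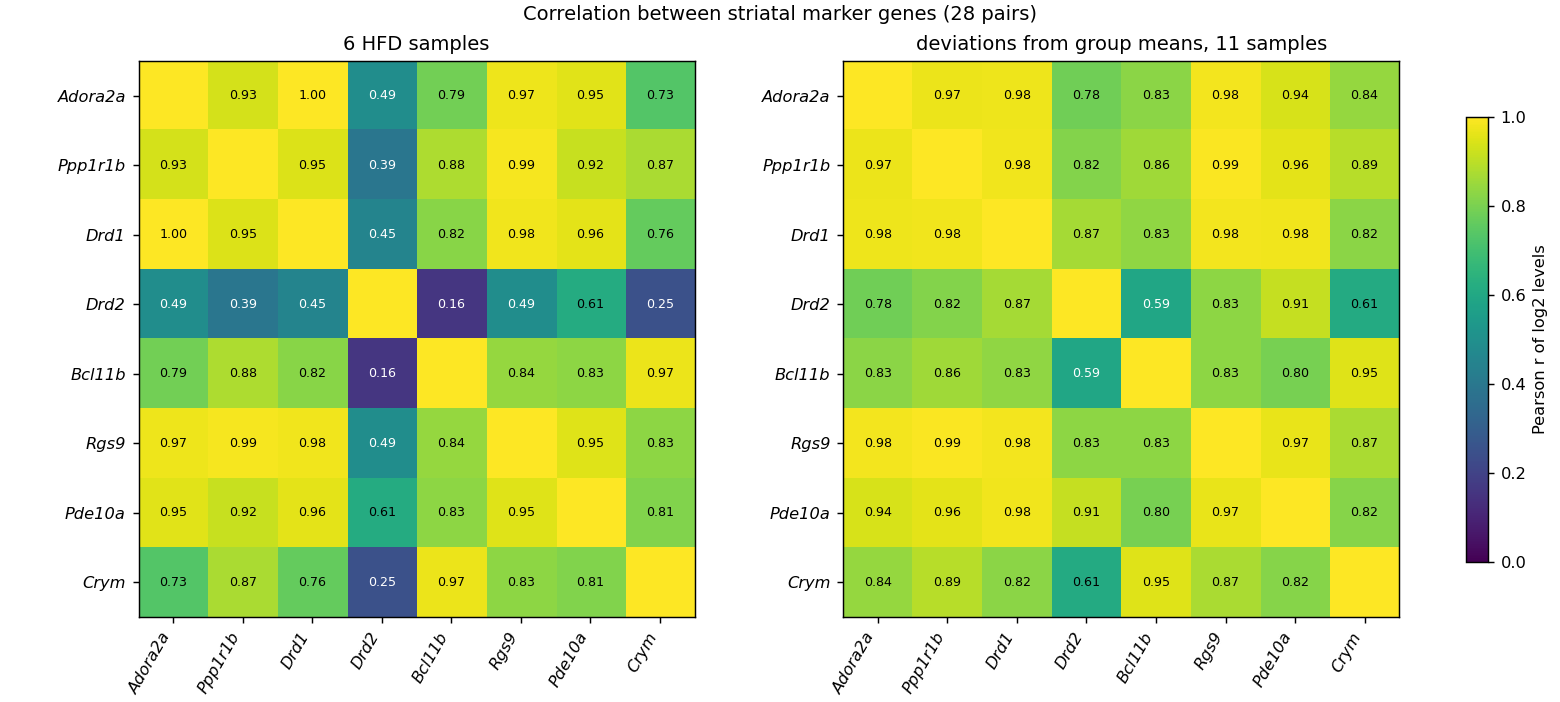
Pearson's r of log2 levels for each pair of the 8 genes (rows and columns), over the 6 HFD samples (left) and over deviations from the group means in all 11 samples (right), on a colour scale from 0 to 1. On the left, the row of Drd2 holds the lowest values, 0.156 to 0.614.

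Other genes of medium spiny neurons were mostly lower or not called in HFD offspring. Of 40 further striatal genes, 20 fell, 4 rose and 16 were not called, with a median difference of -0.40. The share that fell lay close to the background of 43.8%, and the share that rose was below the 22% of all genes. Among 6 other genes of the indirect pathway, 3 were lower, namely Penk, the enkephalin precursor, at -1.05, the orphan receptor gene Gpr6 at -1.44 and the phosphatase gene Ptprm at -1.09. Gprin3 was higher by 0.83, and Sp9, a transcription factor of these neurons, was at -0.04 and did not pass (adjusted p = 0.888). Among 6 genes of the direct pathway, Pdyn, the dynorphin precursor, was lower with -1.39 and without overlap, and the muscarinic receptor gene Chrm4 with -0.83. Ptprm, Pdyn and Chrm4 were dim in HFD samples (mean levels of -6.22, -5.12 and -4.64), which limits their differences. Tac1, which encodes substance P, was at -0.30 and did not pass (adjusted p = 0.150), and Sfxn1 was higher by 0.21.

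Among 19 genes of striatal signaling, 13 were lower, 1 was higher and 5 did not pass, at a median of -0.82, against 43.8% of all genes lower and 22% higher. The sodium channel subunit gene Scn4b (-1.56) and Gnb5 (-0.94), the G protein beta subunit that partners Rgs9, were lower without overlap between the groups, as was Lrrc10b (-2.20). Adcy5 (-0.88), the main striatal adenylyl cyclase, and Gng7 (-1.37), a G protein gamma subunit of these neurons, were lower with overlap. Gnal, the olfactory-type G protein alpha subunit that couples the D1 receptor and the adenosine receptor of these neurons to adenylyl cyclase, was at -0.02 and did not pass (adjusted p = 0.871). Rgs7bp, which anchors RGS proteins at the membrane, was higher by 0.92. Of 9 striatal transcription factors, Dlx6 (-0.88) and Six3 (-0.40) were lower, Foxp2 was higher by 1.81 without overlap, and 6 did not pass, among them Foxp1 at -0.34 (adjusted p = 0.0803) and Rarb at -0.62 (adjusted p = 0.0922). Dlx6 was dim in HFD samples (mean level of -5.11), which limits its difference. The count of 20 became 37 with scaling to spike-in probes, 12 with normexp background correction and 2 by the Rank Product test. With spike-in scaling every difference named here is lower by 0.67, which turns Sfxn1 below 0.

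**Figure D4:**
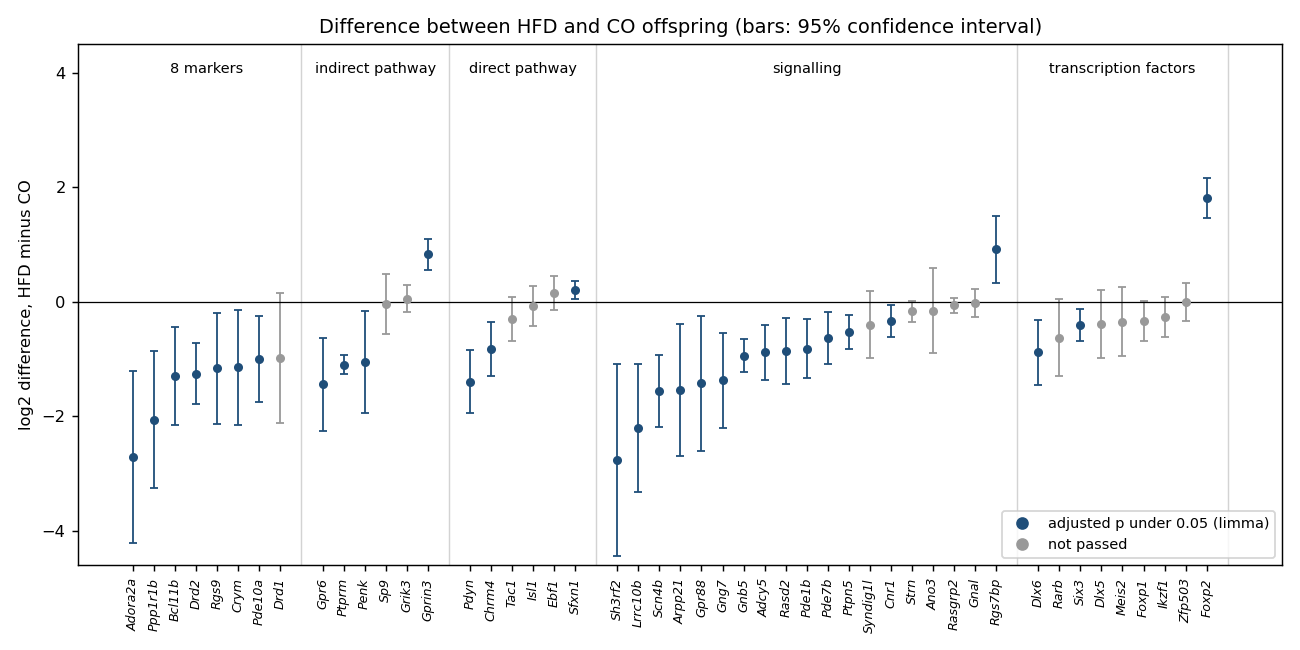
Log2 difference, HFD minus CO (y axis), with 95% confidence intervals for the 8 markers and 40 further striatal genes by group, blue where the adjusted p of limma was under 0.05 and grey where it was not (n = 6 HFD and 5 CO). All 8 markers are below 0, and 4 of the 40 further genes, led by Foxp2 at 1.81, are higher.

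Genes of proteins that act on DARPP-32, or that bind or handle dopamine and adenosine, were counted in the same way, against the same 43.8% of all genes lower and 22% higher. Of 15 kinase and phosphatase genes around DARPP-32, 6 were lower, 2 higher and 7 not passed, with a median of -0.17, against -0.17 over all genes, and Ppp1cb, a catalytic subunit of protein phosphatase 1, was the highest with 0.79. Of 11 other genes of dopamine and adenosine signaling, 5 were lower and 6 did not pass. Drd3, the D3 receptor, fell by 1.34 without overlap, Adora3 by 0.62 and Adora1 by 0.19. Drd3 was dim in HFD samples (mean level of -5.15), which limits its difference. Among 9 genes of dopamine neurons, 1 was higher (the vesicular transporter gene Slc18a2, 0.78) and 8 did not pass, with Th, which encodes tyrosine hydroxylase, at -0.44 (adjusted p = 0.0848). Among the genes of cholinergic neurons given here, Lhx8 (-1.08) and Slc18a3 (-0.76) were lower, Slc5a7 was higher by 0.39, and Chat was at 0.21 and did not pass. Scaling to spike-in probes lowers each of these differences by 0.67, which turns Slc5a7 and Chat below 0.

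Marker genes of neighboring regions were measured on the same arrays, and their counts stand against 22% of all genes higher and 43.8% lower. The thalamic list held 12 genes, with 7 higher, 1 lower and 4 not passed, and its mean log2 level was 0.254 to 0.656 in HFD and -0.260 to 0.300 in CO samples. Of 12 genes of cortex and hippocampus, 4 were lower, 1 higher and 7 did not pass, with mean levels of -3.40 to -2.27 in HFD and -2.72 to -1.57 in CO samples. Of 22 hypothalamic genes, 7 were higher, among them Pmch (0.87), Hcrt (0.58) and Sim1, which was above background on 6 arrays only and so could pass only through the group in which it was high, 1 was lower and 14 did not pass, with mean levels of -0.900 to -0.153 in HFD and -0.851 to -0.627 in CO samples. All of these directions are relative to the 75th percentile, and with spike-in scaling every difference is lower by 0.67, which turns the thalamic median of 0.43, the hypothalamic median of 0.19 and Hcrt below 0. Of 8 choroid plexus genes, 1 (Folr1) was lower and 7 did not pass, and of 8 pituitary genes, 4 were tested, while Gh, Fshb, Pou1f1 and Tbx19 were not well above background on enough arrays. HFD replicate 1, the lowest HFD sample for 7 of the 8 striatal marker genes, also differed from the other HFD samples in these lists. It was the lowest HFD sample for cortex and hippocampus (-3.40), the hypothalamus (-0.900), choroid plexus (-0.797) and cholinergic neurons (-2.49). It was the highest for the thalamic list (0.656), dopamine neurons (0.125) and the pituitary genes tested (-4.22). The pituitary mean rests on 4 genes. Among them is Prl, which was well above background on 5 arrays only and had an SD of 2.29 in HFD samples. CO replicate 4 was the lowest CO sample for the lists of DARPP-32 kinases and phosphatases (2.83) and cholinergic neurons (-2.04) and the highest for that of dopamine neurons (-0.303). For the hypothalamic list, CO replicates 4 and 2 were level at the top of the CO samples (-0.6273 and -0.6276). CO replicate 4 was at neither end for the thalamic and the cortical list (0.159 and -2.22). The part of neighboring tissue in the levels of the 8 genes was not tested.

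Genes were also ranked by how closely their deviations from the group means followed the mean deviation of the 8 markers over the 11 samples, each gene scaled by its SD. Of 15369 genes well above background on all arrays, 2.75% had an r above 0.8 and the median was 0.068. The most alike gene was Ankrd63 (r = 0.992), followed by Asb11 (0.988), Serpina9 (0.988), Actn2 (0.986), Phactr1 (0.985), Gng7 (0.984), Plppr1 (0.984), Jsrp1 (0.983), Arpp21 (0.981) and Meis2 (0.980). All 10 kept an r of at least 0.954 without the 2 samples farthest from the median. A close likeness within the groups did not go with 1 size of difference between them: Serpina9 and Arpp21 were both at -1.54, whereas Phactr1 at -0.06, Plppr1 at -0.34 and Meis2 at -0.35 did not pass the test. The lowest coefficients were those of Cubn (-0.958), Chd9 (-0.925), Ttbk2 (-0.918), Arl5a (-0.903) and Adcy7 (-0.902), of which the first 4 were higher in HFD offspring, Cubn by 1.35 and Arl5a by 0.51, the last of which spike-in scaling turns below 0, and Adcy7 did not pass.

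The markers and the lists were chosen with earlier results of these data known, so their likeness is described here and not tested. Of 39 further striatal genes in this ranking, 23 had an r above 0.8, with a median of 0.850. By list, these were 14 of 18 signaling genes, 5 of 9 transcription factors and 3 of 6 indirect pathway genes. Of 6 direct pathway genes only 1 (Pdyn, 0.871) was above 0.8, and the median of that list was 0.619. Penk (0.979), Gpr6 (0.977), Rarb (0.951), Sp9 (0.946) and Gnal (0.811) followed the 8 genes across samples, and of these Rarb, Sp9 and Gnal did not pass the comparison of the diets. Foxp2 (-0.327), Ptprm (-0.200), Chrm4 (-0.191) and Gprin3 (0.051) did not follow them, although each passed it. Median r was -0.489 for genes of dopamine neurons, -0.360 for thalamic, 0.173 for cortical and hippocampal and 0.257 for hypothalamic genes. No gene of the dopamine neuron, thalamic or hypothalamic lists had an r above 0.8, and Lamp5 was the only 1 of the cortical list. Of the kinase and phosphatase genes around DARPP-32, 3 of 15 were above 0.8, with Prkar2b the highest (0.880) and a median of 0.237. Of the other dopamine and adenosine genes, 2 of 11 were, with Drd3 the highest (0.847) and a median of 0.167. Over all genes the share was 2.75%.

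**Figure D5:**
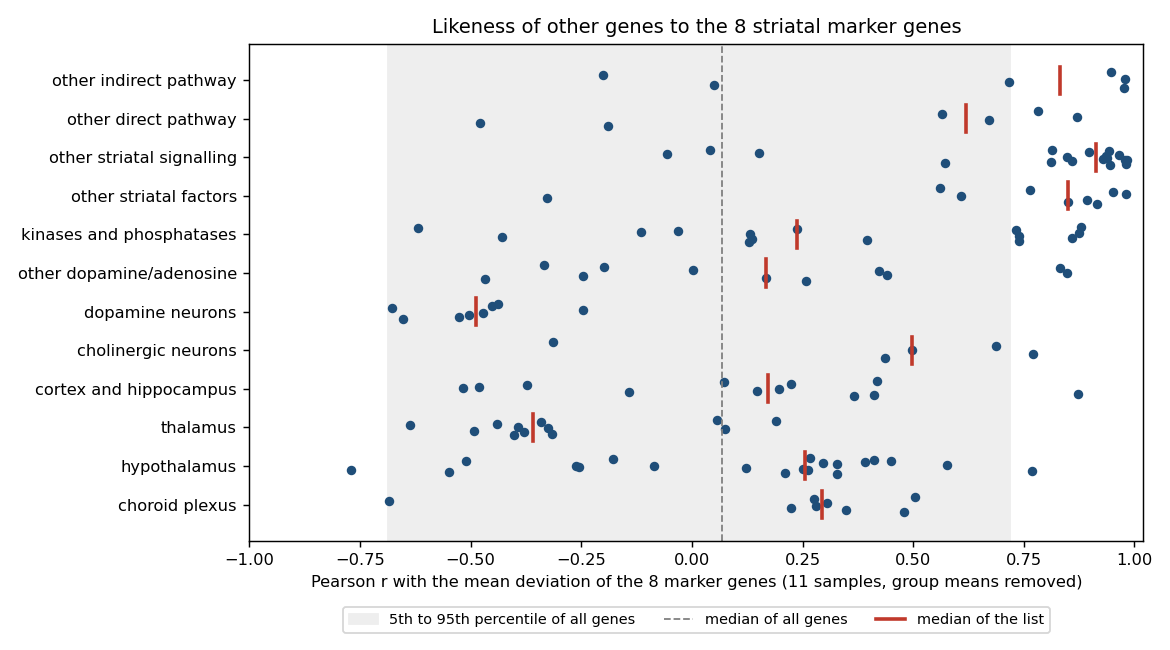
Pearson's r of each listed gene with the mean scaled deviation of the 8 marker genes over 11 samples (x axis), by gene list (y axis), with the median of each list (red) and the 5th to 95th percentile of 15369 genes (grey band, -0.688 to 0.719). The 4 striatal lists have the highest medians shown, 0.619 to 0.914, but that of the direct pathway (0.619) lies inside the grey band.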

How the data were processed

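Hypothalamic RNA of 6 HFD and 5 CO samples was measured on Agilent single-dye mouse arrays. The authors deposited the scanner output, and the values used are processed intensity values on a linear scale, from which Feature Extraction (10.8 in the processing notes, 10.7.3.1 in the file headers) had subtracted the background; any scaling across arrays was not stated in the sources used here. From the deposited intensity, log2 values relative to each array's 75th percentile were computed, without control spots and feature outliers, and spots of a probe were averaged. Accessions were matched to RefSeq gene names (26369 of 39429 probes). The 31790 probes that exceeded background clearly on 5 or more of the 11 arrays were compared by limma 3.58.1 in R 4.3.3, with two-sided tests, p-values adjusted by Benjamini-Hochberg across these probes and a threshold of 0.05. This step was tested on simulated data. Named genes are the 8 members, up to 4 per list with the smallest adjusted p, with others added after their values were seen, and the 10 most and 5 least alike the members. One listed marker gene is not reported here. Members and lists were chosen with earlier results of these data known. The number of arrays limits the precision. Alternatives were another scaling (quantile, median, spike-in probes), normexp on median signals, since no mean signal was used here, other filters, blocks and tests, the mean over a gene's probes, and leaving out each array.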

Additional observations from a re-analysis of the deposited data

Results flagged for a closer look

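Of 24 groups of samples examined (12 member probes in HFD and CO), 2 held a sample far from the others of its group, by Dixon's criterion at the 95% level, which chance meets in about 1 in 20 groups. On the brightest probe of Bcl11b, HFD replicate 1 was at -1.83, with a gap to the next HFD sample of 0.632 of the group's range. On the third probe of Rgs9, HFD replicate 1 was at -5.35, with a gap of 0.691 of the range. Without HFD replicate 1, the differences were -1.01 for Bcl11b and -0.80 for this probe of Rgs9, and both still passed the test (limma, adjusted p = 0.0121 and 0.000388).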

How the results depend on the processing

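The members' differences were below 0 under all 284 combinations of a member probe or gene and an alternative, and 236 of these kept their side of the threshold, 42 lost the call and 6 gained it. Other filters and the Rank Product test leave the difference itself unchanged, so its sign could not change there. The same holds for the mean over probes where a gene had 1 tested probe. Adora2a and Ppp1r1b kept their call under all 24 alternatives run for each, Crym lost it under 15 and Rgs9 under 10. In the Rank Product test, the percentage of false positives was below its stricter threshold for Adora2a and Ppp1r1b only among the members. Over all probes, 13852 were lower and 7487 higher in HFD offspring. These counts were 25562 and 2261 with scaling to spike-in probes, 5613 and 4485 with normexp background correction, and 677 and 899 by the Rank Product test. Higher probes made up 35.1% of the calls, against 8.13%, 44.4% and 57.0% under those settings. The 10 lower member probes became 6 with normexp and 2 by Rank Product, and the 20 lower further striatal genes 37 with spike-in scaling, 12 with normexp and 2 by Rank Product; the cause was not tested. Leaving out 1 sample at a time gave 6 to 11 lower member probes (6 without CO replicate 1 and 6 without CO replicate 2), 16 to 25 lower further striatal genes, 12831 to 13743 lower and 7068 to 7489 higher probes, and a median correlation of 0.767 to 0.950 in HFD samples.

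Deviations of CO and HFD samples with equal replicate numbers correlated at -0.087 to 0.224 over 5 numbers. Among CO samples, 2 of 5 correlated best with the HFD sample of their own number. So few values cannot settle whether equal numbers mark pairs. The replicate block, which drops HFD replicate 6, gave 9 lower member probes, and 12979 lower and 6933 higher probes. An alternative chosen after seeing the data, in which background outlier spots were left out as well, gave 11 lower member probes. Levels near the background, such as those of the third probe of Rgs9 and of Ptprm, Pdyn, Drd3 and Dlx6 in HFD samples, are limited by the dim signal.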
